A study of Drosophila melanogaster with 3 samples.

Results

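The genes bap, bin, tin, Alk, jeb, Fas3, org-1, Mef2, slp1 and slp2 regulate or mark the trunk visceral mesoderm of the fly embryo, the tissue that forms the circular muscle of the midgut, and the muscle made from it. They were chosen by name, with earlier results of these data known, as 10 of the 13945 protein-coding genes annotated on the 6 chromosome arms. For each, every peak with its summit in the gene or within 10 kb on either side was taken from ChIP-seq peak lists of HLH54F, a transcription factor of the basic helix-loop-helix (bHLH) class that acts in the caudal visceral mesoderm, the source of the longitudinal gut muscles. The samples were 3 biological replicates of whole Drosophila melanogaster embryos, male and female pooled, aged 0 to 24 h, from the transgenic strain HLH54F-GFP, which stably expresses HLH54F with GFP at its C terminus. Chromatin was sonicated to 200 to 800 bp. The sample descriptions name an antibody against GFP for the precipitation, whereas the antibody field of the labels names HLH54F. The labels give 1 strain and 1 group, no promoter or expressing cell type for the transgene, and no statement of whether native HLH54F was also present. All comparisons are therefore between genes, peaks and replicates. In whole embryos, few cells with a bound site and many cells with weak binding cannot be told apart, and neither can the tissue in which a site was bound.

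By way of background, the homeodomain protein Tinman (tin) becomes confined to the dorsal mesoderm under Dpp signalling and there helps to switch on bagpipe (bap), a homeodomain gene whose product activates biniou (bin), a forkhead gene needed for visceral muscle. Hedgehog favours bap in the segmental patches of visceral mesoderm, and Wingless, acting through the forkhead proteins Sloppy paired 1 and 2 (slp1, slp2), represses it between them. Jelly belly (jeb) is a ligand secreted by the somatic mesoderm, and its receptor tyrosine kinase Alk on visceral cells specifies the founder cells that express the T-box gene org-1. Fasciclin 3 (Fas3) is an adhesion protein that marks the trunk visceral mesoderm, and Mef2 is the MADS-box factor of muscle differentiation.

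The sequences around the summits of 5 optimal peaks, the called binding sites explained below, are printed first. Each lies away from the promoters of neighbours, is the strongest such peak of its gene or gene pair, and holds a CANNTG hexamer, the E-box that bHLH proteins bind. In all, 10 optimal peaks near the members lay away from neighbours' promoters and held an E-box, and those of Mef2 and jeb are not printed. The signals of the tin and bin peaks are below the median of all optimal peaks. Each is the plus strand of the release 6 genome, 100 bp on either side of the summit, with the E-boxes in capitals. The windows are chr2L:3832427-3832627 between slp1 and slp2, chrX:8455288-8455488 upstream of org-1, chr2L:18325169-18325369 in Fas3, chr3R:21378624-21378824 upstream of tin and chr3L:6989065-6989265 upstream of bin.
slp1/slp2: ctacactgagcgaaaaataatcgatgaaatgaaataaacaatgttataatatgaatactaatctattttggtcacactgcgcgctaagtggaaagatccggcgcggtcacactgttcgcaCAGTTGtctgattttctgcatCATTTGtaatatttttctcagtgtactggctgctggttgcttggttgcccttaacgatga
org-1: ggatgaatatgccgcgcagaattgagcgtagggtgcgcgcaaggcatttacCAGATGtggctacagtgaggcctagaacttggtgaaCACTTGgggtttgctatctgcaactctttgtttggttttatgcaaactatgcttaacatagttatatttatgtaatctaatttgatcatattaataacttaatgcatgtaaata
Fas3: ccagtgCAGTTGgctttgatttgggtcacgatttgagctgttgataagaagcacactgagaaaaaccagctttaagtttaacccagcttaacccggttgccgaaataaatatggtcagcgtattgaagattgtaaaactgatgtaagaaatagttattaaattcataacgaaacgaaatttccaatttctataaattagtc
tin: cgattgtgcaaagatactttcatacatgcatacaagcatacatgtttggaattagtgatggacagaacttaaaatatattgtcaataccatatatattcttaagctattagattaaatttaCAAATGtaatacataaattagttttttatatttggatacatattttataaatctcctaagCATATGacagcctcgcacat
bin: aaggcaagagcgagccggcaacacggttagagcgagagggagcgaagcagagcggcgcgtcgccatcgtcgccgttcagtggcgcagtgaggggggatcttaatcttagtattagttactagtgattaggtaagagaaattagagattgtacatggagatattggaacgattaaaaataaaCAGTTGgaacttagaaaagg
In the slp1/slp2 window the E-boxes began 20 and 41 bp after the summit. In the org-1 window the nearer E-box ended 8 bp before the summit, and in the tin window the nearer one began 21 bp after it. The single E-boxes of Fas3 and bin lay near the window edges, 89 and 81 bp from the summit.

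The pooled list, called on all 3 replicates together, held 23689 peaks. The optimal list, which passed the authors' irreproducible discovery rate (IDR) procedure, held 4246, and these were the 4246 pooled peaks of highest signal, with a lowest signal of 92.7. Signal is the authors' value for each peak and is used only to describe and rank peaks within a list. The replicate lists held 30000, 30000 and 24914 peaks, and a rank below is the place of the strongest replicate peak that covers the pooled summit, counted from the highest signal. Read depth is unknown.

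The windows of the 10 genes held 81 pooled summits, of which 15 were optimal peaks. That is 18.5% (95% Wilson interval 11.6 to 28.3), beside 17.9% of all pooled peaks. The windows merge into 8 separate loci, since slp1 and slp2 share 3 pooled peaks and tin and bap share 2. An optimal summit lay in the window of 8 of the 10 genes, beside 64.0% of all protein-coding genes with windows made in the same way. Leaving out summits within 500 bp of a start site of another gene, it was again 8 of 10, beside 38.5% of all protein-coding genes. Both counts of 8 include slp1 and slp2 through the same 2 optimal peaks. They also include the long windows of Fas3, Mef2 and jeb (93340, 65363 and 54147 bp). The shares of all genes were not matched for window length. An optimal summit lay within 500 bp of an own start site in 3 of 10, tin, org-1 and Mef2, beside 22.6% of all. Within 250 bp it was Mef2 alone, beside 18.6% of all, since the tin and org-1 summits lay 253 and 319 bp from the start. Alk and bap had no optimal summit in their windows. Of the 15 optimal peaks, 3 lay at a member's promoter, 3 at a neighbour's promoter and 9 at none.

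**Figure D1:**
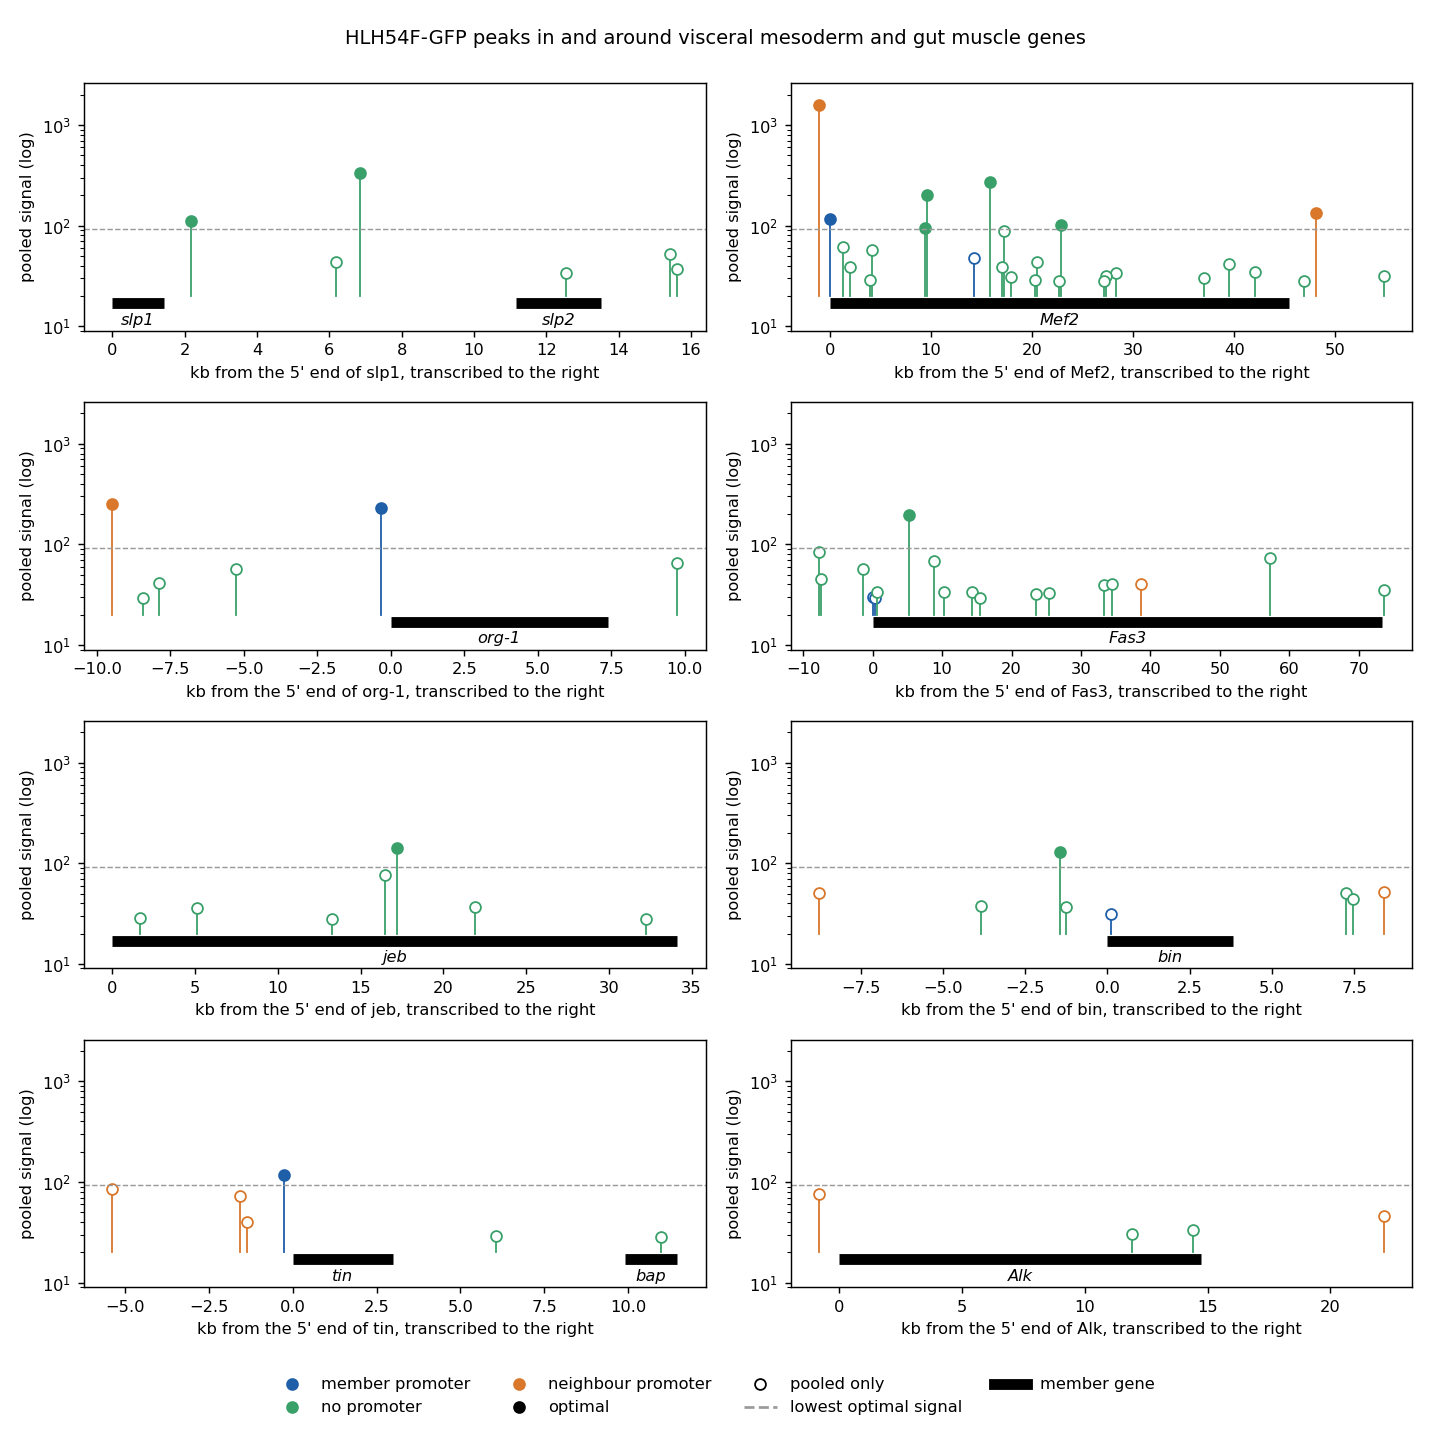
Peaks in the windows of the 10 genes, by distance from the gene's 5′ end (kb, horizontal axis) and the authors' pooled signal (log vertical axis). Filled circles are optimal peaks and open circles other pooled peaks, colours mark a member's promoter, a neighbour's promoter or no promoter, and the dashed line is the lowest optimal signal, 92.7. Mef2 carries the most optimal peaks (7), and the strongest of them, with a signal of 1583, lies upstream of the gene at a neighbour's promoter.

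The segment-patterning genes slp1 (FBgn0003430, 2L 3825675 to 3827099, plus strand) and slp2 (FBgn0004567, 2L 3836840 to 3839185, plus strand) carried the strongest site of any member outside a neighbour's promoter. Its peak (2L 3832393 to 3832610) lay between them, 4313 bp upstream of the slp2 start and 6852 bp downstream of the slp1 start, with a pooled signal of 332. It ranked 621, 468 and 680 in replicates 1, 2 and 3 (mean 589.7 ± 109 SD, n = 3), with replicate signals of 119.6, 121 and 89.6. All 3 replicates placed it far up their lists of 24914 or more peaks, and 86.8% of all optimal peaks had a lower pooled signal. The second optimal peak (2L 3827653 to 3828072) lay 2188 bp downstream of the slp1 start, beyond the gene's end, with a signal of 111. It ranked 6651, 2153 and 3421, so that replicate 1 placed it outside its top 4246. Its summit window held no E-box and had a GC content of 25.9%. The other 4 pooled peaks of the slp windows had signals of 33.6 to 52.5, and the one in the slp2 coding exon was the weakest of them.

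At the mesodermal determinant tin (FBgn0004110, 3R 21378977 to 21381970, plus strand), the optimal peak lay at its own promoter (3R 21378514 to 21378933), 253 bp upstream of the start, with a signal of 117. Its ranks were 2858, 3070 and 4037 (mean 3322 ± 629 SD, n = 3), so it was within the top 4246 of every replicate. The remaining pooled peaks near tin included 3 at promoters of the mod(mdg4) locus, which encodes chromatin proteins. The strongest of these had a signal of 84.6, just under the optimal threshold, with ranks of 7010, 7563 and 3484. The tin summit also lies 10156 bp upstream of bap, just outside its 10 kb flank, while the end of the peak reaches into that flank.

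At bap (FBgn0004862, 3R 21388880 to 21390449, plus strand), the homeodomain gene activated downstream of tin, both pooled peaks were near the bottom of the list. The peak 3827 bp upstream had a signal of 28.8 and was covered in replicate 1 alone, at rank 13326. The peak in the coding exon had a signal of 28.7 and was covered in replicate 3 alone, at rank 11708. No replicate had the summit of a top-4246 peak in the bap window.

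At bin (FBgn0045759, 3L 6990622 to 6994447, plus strand), the forkhead gene downstream of bap, the single optimal peak (3L 6988955 to 6989374) lay 1457 bp upstream of the start with a signal of 129. Its ranks were 2155, 3946 and 4304 (mean 3468 ± 1151 SD, n = 3), which placed it just outside the top 4246 of replicate 3. The promoter of bin itself held a weak pooled peak, with a signal of 31.1, covered in replicate 2 alone. Of the other 6 pooled peaks near bin, 2 lay at neighbours' promoters, those of lncRNA:CR46000 (signal 50.1) and Mp (signal 52.3).

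The founder-cell gene org-1 (FBgn0021767, X 8447691 to 8455069, minus strand) had an optimal peak at its own promoter (X 8455374 to 8455492), 319 bp upstream of the start, with a signal of 228. Its ranks were 1796, 1018 and 1107 (mean 1307 ± 426 SD, n = 3), with replicate signals of 67.3, 83.2 and 68.0. All 3 replicates held it well within their top 4246. The other optimal peak of the window, with a signal of 249.9, belongs by position to Sptr, which encodes sepiapterin reductase. Its summit lay 110 bp from the Sptr start and 9479 bp upstream of org-1. The remaining 4 pooled peaks had signals of 29.1 to 65.7, and none lay inside the org-1 gene.

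For the ligand jeb (FBgn0086677, 2R 12085194 to 12119340, minus strand), all 7 pooled peaks lay inside the gene. The optimal peak (2R 12101949 to 12102368) was in the first intron, 16694 bp downstream of the nearest of its start sites, with a signal of 142. Its ranks were 3981, 1785 and 1989 (mean 2585 ± 1213 SD, n = 3), within the top 4246 of all replicates but spread more than 2-fold. A weaker peak of the same gene, 16010 bp downstream of that site, had a signal of 75.8 (ranks 5077, 10995 and 6559). The other 5 jeb peaks had signals of 28.1 to 36.4.

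For the receptor Alk (FBgn0040505, 2R 16625293 to 16640011, minus strand), 4 pooled peaks and no optimal one were found. The strongest, with a signal of 75.9, lay at the promoter of gprs, 418 bp from its start and 814 bp upstream of Alk. It ranked 4651 and 6910 in replicates 1 and 2 and was not covered in replicate 3. Another lay at the promoter of CG5065 with a signal of 46.5. The only peaks inside Alk were in the 3′ UTR, with signals of 33.6 and 30.5, each covered in 1 replicate. The nearest optimal peak lay 16830 bp beyond the gene, 432 bp from the start of CG5065, with a signal of 188. The ligand gene held 1 optimal peak, found in every replicate, and the receptor gene held none within 10 kb. The jeb window was the longer, at 54147 bp against 34719 bp for Alk, and a difference between the genes was not tested.

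The visceral adhesion gene Fas3 (FBgn0000636, 2L 18320102 to 18393441, plus strand), the longest of the members, had 18 pooled peaks, 14 of them inside the gene, and 1 optimal peak. That peak (2L 18325059 to 18325478) lay in the first intron, 5167 bp downstream of the start, with a signal of 195. Its ranks were 1697, 1958 and 1144 (mean 1600 ± 416 SD, n = 3), with replicate signals of 69.8, 57.0 and 67.0. The Fas3 promoter itself held only weak peaks, with signals of 30.2 and 29.3, both covered in replicate 1 alone. A peak at the promoter of Acp36DE, a seminal fluid protein gene nested in Fas3, had a signal of 40.6. The strongest peak that was not optimal had a signal of 84.8 and lay upstream of Fas3, 1506 bp from lncRNA:CR45721.

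The muscle differentiation gene Mef2 (FBgn0011656, 2R 9913496 to 9958858, minus strand) had 26 pooled and 7 optimal peaks. At least 7 optimal summits lay in the window of 111 (0.796%) of the 13945 protein-coding genes, and at least 5 inside the gene, as in Mef2, in 48 (0.344%). The 3 replicates had 5, 7 and 6 peaks of their top 4246 in the Mef2 window (mean 6 ± 1 SD, n = 3), against 0 to 3 in each window of the other 9 genes. The windows differ in length, and the Mef2 window of 65363 bp is second to the 93340 bp of Fas3 among the members. The shares of all genes above were not matched for window or gene length. The Mef2 counts include overlapping intronic peaks, described below, and, in the window, 2 peaks at neighbours' promoters.

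The optimal peaks inside Mef2 began with one at its own promoter (2R 9958644 to 9959063), 4 bp from the start, with a signal of 115 (ranks 3459, 2452 and 4651). The strongest inside the gene (2R 9942768 to 9943187) lay 1786 bp downstream of an internal start, in a 5′ UTR exon of some transcripts and the first intron of others. Its signal was 270.1 and its ranks were 856, 910 and 1189 (mean 985 ± 179 SD, n = 3). This was the site with the second highest signal of all members outside a neighbour's promoter. Overlapping intronic peaks (2R 9949058 to 9949477 and 9949257 to 9949676) had signals of 203 and 93.6, at 4504 and 4703 bp upstream of the nearest Mef2 start site, which is internal to the gene. The same replicate peaks covered both, at ranks of 1279, 940 and 3028, so they do not count as separate sites in the replicates. A further intronic peak (2R 9935735 to 9936154, signal 101) ranked 4274, 4449 and 2733 and was in the top 4246 of replicate 3 alone. Just below the optimal threshold, an intronic peak with a signal of 88.4 ranked 9371, 3559 and 3245.

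The strongest peak in any window was not at a member's promoter. It lay at the shared promoter of Pal1, which encodes a peptidyl-alpha-hydroxyglycine alpha-amidating lyase, and Pdrg1 (2R 9959678 to 9960139), with its summit 173 bp from the start of each and 1047 bp upstream of Mef2. Its pooled signal was 1583 and its ranks were 16, 16 and 13 (mean 15 ± 1.73 SD, n = 3), and 99.6% of all optimal peaks were weaker. The other neighbour's peak near Mef2 lay 84 bp from the start of Etf-QO, an electron transfer flavoprotein oxidoreductase gene, with a signal of 132 (ranks 3823, 2414 and 1933). Together with the Sptr peak, these were the 3 optimal peaks at neighbours' promoters. A further 8 pooled peaks that were not optimal lay at neighbours' promoters.

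Ordered by their strongest peak outside a neighbour's promoter, the genes ran from slp1 and slp2 (332) through Mef2 (270.1), org-1 (228), Fas3 (195), jeb (142), bin (129) and tin (117) to Alk (33.6) and bap (28.8), all as pooled signals. This order depended on the 10 kb flank: with 2 kb the strongest such peak had a signal of 111 at slp1 and 52.5 at slp2, and Mef2 came first. With the gene body only, slp2 had 33.6, bin had 31.1, and slp1, tin and org-1 had no peak. The ranks of the slp1/slp2 site in the 3 replicates did not overlap those of the Mef2 site. From Mef2 down to tin, each gene's range of replicate ranks overlapped that of the next, so neighbours in the order did not differ beyond the spread between replicates. Alk and bap stood apart from tin in being covered in 1 replicate only.

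**Figure D2:**
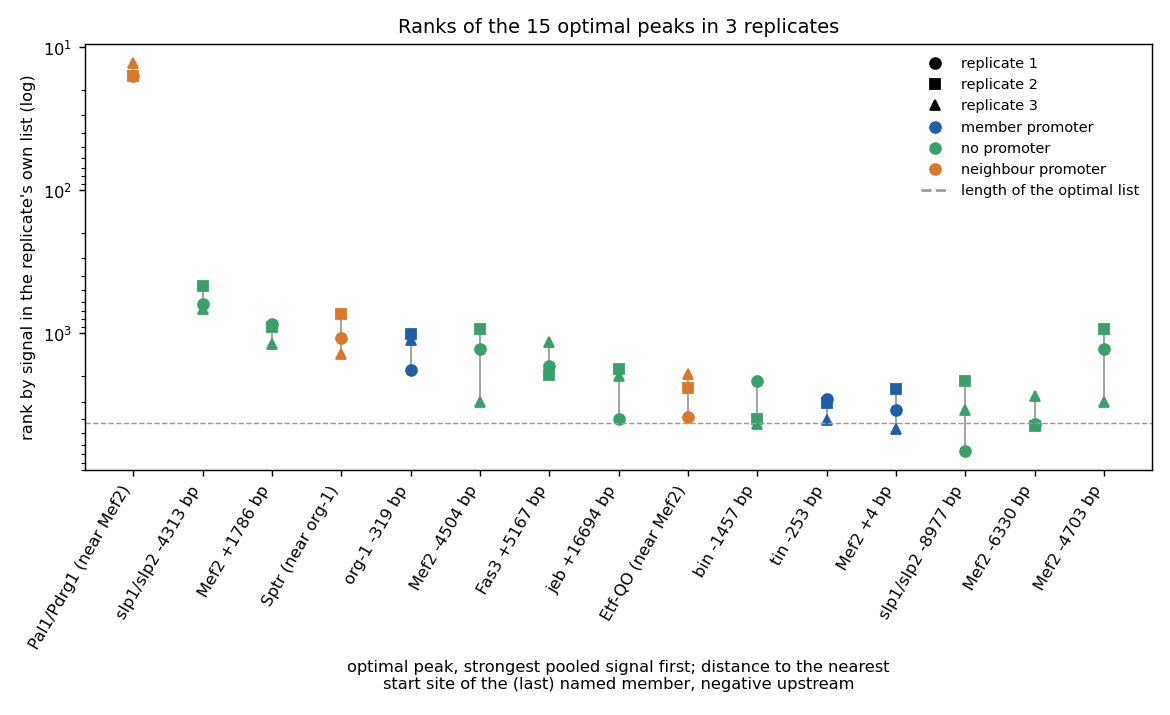
Ranks of the 15 optimal peaks in each of the 3 replicate lists on a log vertical axis with high ranks at the top, 1 column per peak in order of pooled signal. Columns are named by gene, and those at neighbours' promoters carry no distance. The others give the signed distance (bp) from the member's nearest start site, always that of slp2 for the slp1/slp2 peaks. The dashed line marks rank 4246. The Pal1/Pdrg1 peak is the highest at ranks 13 to 16, and 11 of the 15 peaks keep to the top 4246 in all replicates. The overlapping Mef2 intronic peaks share their replicate peaks.

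Across replicates, 11 of the 15 optimal peaks (73.3%, 95% Wilson interval 48.0 to 89.1) lay in a top-4246 peak of every replicate, beside 66.2% of all optimal peaks. A further 3 were found in 2 top lists and 1 in a single one. In the whole replicate lists all 15 were covered in every replicate. Of the 66 pooled peaks that were not optimal, 20 were covered in all 3 whole lists, 23 in 2, 22 in 1 and 1 in none. With the optimal peaks included, 35 of 81 (43.2%, 95% Wilson interval 33.0 to 54.1) were covered in all 3, beside 37.4% of all pooled peaks. The optimal list was derived from these replicate lists, so the agreement of optimal peaks with the replicates is not independent of their selection.

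**Figure D3:**
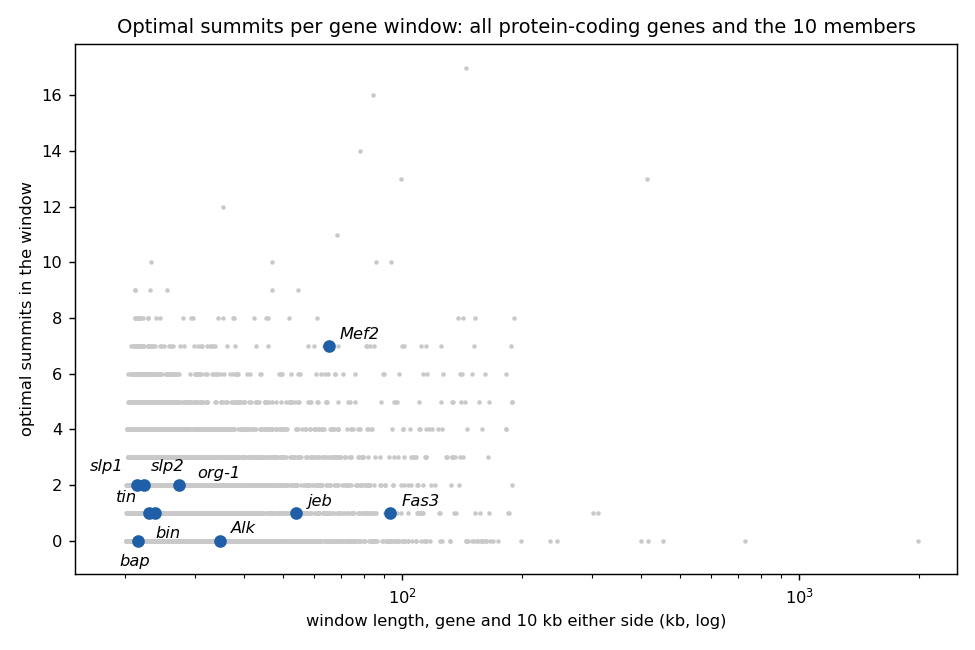
Optimal summits per gene window against window length (kb, log axis) for all 13945 protein-coding genes (grey) and the 10 members (blue). Mef2 has 7, org-1, slp1 and slp2 have 2 each, and Alk and bap have 0.

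The members' optimal peaks had a median signal of 142, beside 154 for all optimal peaks, and their other pooled peaks a median of 36.9, beside 38.1. By position, 6 of the 15 (40.0%) lay within 500 bp of any start site, beside 60.9% of all optimal peaks. Introns held 5 (33.3%, beside 27.6%), intergenic sequence 3 (20%, beside 9.44%) and a 5′ UTR exon 1 (6.67%, beside 0.542%). Of the members' other 66 pooled peaks, 12 (18.2%) lay at a promoter, beside 29.8% of all other pooled peaks, and 42.4% lay in introns, beside 39.6%. With 15 optimal peaks a single peak moves a share by 6.67 percentage points.

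**Figure D4:**
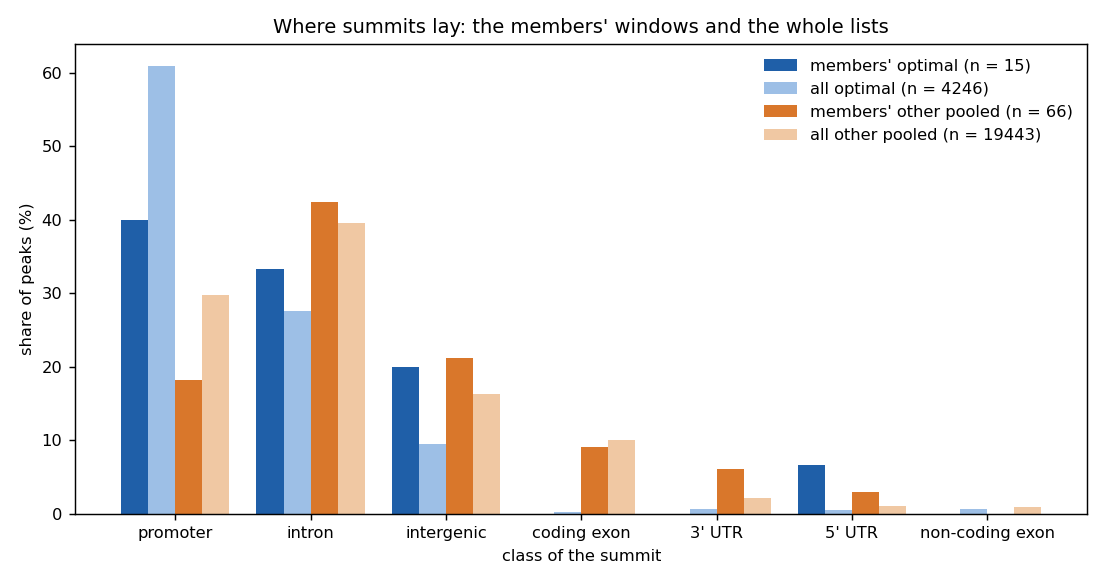
Share of peaks (percent) in each position class for the members' optimal peaks (15), all optimal peaks (4246), the members' other pooled peaks (66) and all other pooled peaks. Promoter peaks are 40.0% of the members' optimal peaks and 60.9% of all optimal peaks.

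An E-box lay within 100 bp of 11 of the 15 optimal summits (73.3%, 95% Wilson interval 48.0 to 89.1), beside 62.1% of all optimal summits. The interval includes the share of all optimal peaks. CANNTG and the sequences below were searched on both strands. Of the 10 E-box classes, that found most often was CAAATG, at 6 summits (40.0%, 95% Wilson interval 19.8 to 64.3), beside 17.9% of all optimal summits. It is singled out after its values were seen. Most of the 6 summits lay in the single Mef2 window, that at the Etf-QO promoter among them, whereas the interval treats summits as independent. The class CAACTG followed at 3 (20%, beside 10.5%), and CATATG was found at 2 (13.3%, interval 3.74 to 37.9), beside 7.37%. Of the other 7 classes, 3 were each found at 2 summits, beside 6.15 to 11.96% of all, and 1 at a single summit, beside 2.61%. The last 3, CAGCTG among them, were found at none, beside 7.75 to 11.2% of all, and 0 of 15 leaves an upper Wilson bound of 20.4%. CAGCTG was present at 10 of the 66 other pooled summits of the members (15.2%, interval 8.44 to 25.7), beside 10.5% of all other pooled summits. TAAACA, a forkhead-type sequence, was found at 6 of 15, beside 25.9%, and GAGAG at 3 of 15, beside 21.5%. TTAAGTG and TCAAGTG are both NK-2 homeodomain sequences. TTAAGTG was found at 1 of 15, beside 4.76%, and TCAAGTG, which also contains an E-box, at none, beside 3.58%. The palindrome TATCGATA was found at none, beside 5.79%. The median GC content of the summit windows was 38.3%, beside 36.8% for all optimal summits. Such matches describe the sequence and do not show which factor was bound.

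The other genes of the pathway were read from 4 lists of 50 genes in all, with the same windows. Of them, 36 (72.0%) had an optimal summit in the window, beside 64.0% of all protein-coding genes. One that was not at another gene's promoter was found for 25 (50%, beside 38.5%), and one at an own promoter for 7 (14.0%, beside 22.6%). Among upstream signals and patterning genes, 12 of 17 (70.6%, beside 64.0% of all) had one in the window, and twi, put, hh, wg and en did not. Of these, put had a peak 19 bp from its own start with a signal of 92.67, just under the lowest optimal signal of 92.74. Its ranks were 4489, 3250 and 20785, so only replicate 2 held it in its top 4246. In 6 of 17 (35.3%, beside 38.5%) an optimal summit was found away from another gene's promoter. Counting peaks at any position, Med, the common Smad of Dpp signalling, had the strongest of this list. Its signal was 1012, at the promoter of Mnat9 (ranks 62, 52 and 37). Mad, the receptor-regulated partner of Med, followed with an intronic peak of signal 342 (ranks 638, 427 and 576). In the relay downstream of Alk, 9 of 11 (81.8%, beside 64.0%) had one, and 6 (54.5%, beside 38.5%) one not at another gene's promoter. By the strongest peak at any position, Raf, the kinase of the Ras pathway, led this list. Its intronic peak had a signal of 857 (ranks 79, 67 and 78). The scaffold gene cnk came next, with a signal of 561 at the promoter of l(2)k01209, covered in replicates 2 and 3.

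Among founder-cell and muscle differentiation genes, 9 of 14 (64.3%) had an optimal summit, beside 64.0% of all protein-coding genes, and 8 (57.1%, beside 38.5%) had one not at another gene's promoter. At any position, the strongest peak of the list was near the fusion gene mbc, with a signal of 523 (ranks 253, 234 and 149). Its summit lay 206 bp upstream of the mbc start and 62 bp from the start of Nup98-96. It was classed as at the own promoter of mbc, although both starts lay within 500 bp. The muscle ubiquitin ligase gene mib2 followed, with a signal of 431 at the promoter of Acn. Of the midgut patterning genes, 6 of 8 (75.0%, beside 64.0%) had one, and 5 (62.5%, beside 38.5%) one not at another gene's promoter. The Hox gene abd-A had an intergenic peak of signal 424 (ranks 290, 470 and 321), 29211 bp downstream of its nearest own start. The start of lncRNA:CR45750 was nearer, at 1706 bp. Antp had an intronic peak of signal 206 (ranks 1421, 1810 and 1397). That peak lay 20374 bp downstream of the nearest Antp start and 7784 bp from the start of lncRNA:CR43252. The strongest pathway peaks thus include some at the promoters of neighbours, as near Mef2.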

How the data were processed

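Binding of GFP-tagged HLH54F was measured by ChIP-seq in 3 replicates. The authors deposited narrow peak lists in dm6 per the text records with the samples: 1 per replicate, 1 pooled and 1 optimal IDR list, each called against 1 control file. The deposited signal value of each peak was used; its scaling is not stated, and the sources used here name no aligner, caller or settings. The lists in dm3 were not used, since builds were not converted.

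Genes and start sites came from Ensembl release 115 (BDGP6 annotation 6.54, transposable elements left out) and sequence from the release 6 genome, whose arm coordinates fit the lists. A summit (start plus offset) was placed in a gene window by position, and classed as promoter within 500 bp of any start site, otherwise by the exon part (5′ UTR, then coding, then 3′ UTR, then non-coding), then intron, then intergenic. Ranks came from the whole replicate lists, and a peak counted as found when its summit lay in one of a replicate's 4246 strongest peaks. Motifs were searched in 201 bp on both strands. The members and lists were chosen with earlier results of these data known. Genes named were the members, genes nearest to their optimal peaks, and the 2 pathway genes per list with the strongest optimal peak; genes at weaker peaks were named after their values were seen. No test was run, as there is 1 group. Wilson intervals cover counting error only, and read depth is unknown. The scripts (Python 3.11.15, SciPy 1.17.1, NumPy 2.4.6, Matplotlib 3.10.9) were tested on simulated data. Of the pathway symbols, phl and lea were matched as Raf and robo2 through RefSeq synonyms. Alternatives were other flanks, promoter distances, motif windows, a stricter list and leaving out each replicate.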

Additional observations from a re-analysis of the deposited data

How the results depend on the processing

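The counts moved with the flank, by construction, since it sets the length searched. With the gene body only, 3 of the 10 genes had an optimal summit (beside 11.3% of all protein-coding genes), with 7 optimal and 48 pooled summits and 0 optimal summits at neighbours' promoters. With 2 kb there was 1 optimal summit at a neighbour's promoter, and with 20 kb there were 7, and all 10 genes then had an optimal summit, beside 78.2% of all. Counted by any overlap of the peak with the 10 kb window, 9 genes had an optimal peak, since the tin peak reached the bap window. The matching share of all genes is not given here. In the stronger part of the optimal list (2123 peaks), 5 genes had an optimal summit, beside 45.1% of all protein-coding genes. In that part, 7 optimal summits lay in the windows and 5 of them had an E-box. The E-box share of all summits in that part is not given here, so this count cannot be set against a background. With promoters set at 250 bp, 1 optimal summit lay at a member's promoter, that of Mef2, beside 18.6% of all genes, and the calls at tin and org-1 were lost. The strongest signals also moved with the flank: with 2 kb that of slp1 was 111 and that of slp2 52.5, and with the gene body only that of bin was 31.1. The number of optimal peaks found in every replicate ranged from 11 to 13 when each replicate was left out. No mean rank was computed for bap and Alk, whose strongest peaks were not covered in every replicate. No paired analysis was possible because there is 1 group. Unknown depth limits any statement on sites without a peak.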

Other observations

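Some peaks within the top 4246 of a replicate overlapped no optimal peak. In the Mef2 intron, replicates 2 and 3 held such a peak at ranks 3559 and 3245, while the pooled summit there ranked 9371 in replicate 1. Near Fas3, replicate 3 held one at rank 2783 in the intron and replicate 2 one at rank 4200 upstream of the gene. Near org-1, replicate 1 held one at rank 4056, 2964 bp from the start of CG12123, and near tin, replicate 3 held one at rank 3484, at the mod(mdg4) locus.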
